A study of Mus musculus with 11 samples.

Results

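Mouse embryonic stem cells (ESCs) transfected with CMTR1 siRNA 1 were compared with ESCs transfected with a control scramble siRNA, gene by gene, with the ribosomal protein, histone and pluripotency genes set aside. Libraries were chosen by their titles, which gave 3 control libraries and 4 libraries labelled CMTR1 siRNA 1, so 7 of the 11 libraries of the series. The other 4 libraries carry a second CMTR1 siRNA, siRNA 2. They entered the expression filter and the estimate of spread that all 3 groups share, and so every adjusted p below. Their own values are given only where the siRNAs are set against each other. All groups shared the same E14 ESC line, grown on gelatin with Knockout Serum Replacement and LIF and harvested 36 h after transfection, so the control cells also carried an siRNA and its transfection reagent. RNA was depleted of ribosomal RNA and sequenced by a directional protocol, and the deposited values are reads counted per gene. Genes above 1 CPM (CPM scales each count to the total counted in its library) in at least 4 of the 11 libraries were tested, which kept 16073 of 54838.

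CMTR1 is the enzyme that methylates the ribose of the first transcribed nucleotide of an RNA polymerase II transcript, next to the cap, a step that marks the RNA as the cell's own and adds to its stability and translation. ESCs depend on high rates of translation and amino acid supply, and their stress pathways are wired through a few transcription factors. ATF4 raises amino acid synthesis, transport and tRNA charging when amino acids run short or translation initiation is inhibited, and p53 raises cell cycle inhibitors and pro-apoptotic genes after damage or ribosome stress. A small interfering RNA guides Argonaute to a fully matched transcript, and can also lower transcripts that match only its seed (guide bases 2 to 8) in their 3′ UTRs, as a microRNA does.

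The target of siRNA 1 and the complementary strand, taken here as its guide, are shown because the seed, in capitals, is compared below with the genes that fell.
siRNA 1 target, sense DNA: caaaggagaccATGAATTt
siRNA 1 guide, RNA: aAAUUCAUggucuccuuug
siRNA 2 target, sense DNA: gatggttattgAAGATGAa
siRNA 2 guide, RNA: uUCAUCUUcaauaaccauc
The siRNA 1 target lies in the coding sequence of Cmtr1 in exon 13 of 24, at chr17:29691377-29691395 of GRCm38 on the plus strand. That of siRNA 2 lies in exon 6, at chr17:29680594-29680612. The 19 bases of both targets are also part of Gm28043, an overlapping read-through gene.

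Counted reads ran from 6738478 to 8107684 in the 7 libraries. No library stood apart: the correlation of log2 CPM over genes was 0.994 to 0.9946 between control libraries, 0.9929 to 0.9944 between siRNA 1 libraries and 0.9912 to 0.9936 across the groups. The labels number 4 libraries for each CMTR1 siRNA where the study's methods describe 3 biological replicates, and do not say which libraries came from separate cultures, so the p-values below measure the spread between these libraries, part of which may be technical. Of 7 defining ESC markers all 7 were expressed, and 6 fell with siRNA 1, against 1.97% of all genes lower. In the pluripotency list, which was set aside, 22 of 58 fell (37.9%). The summed level of the 7 markers was 1420 to 1540 CPM in control and 1170 to 1340 CPM in siRNA 1 libraries. Markers of other cells were also summed. Summed fibroblast markers (6 of 8 above the filter, 0 called) were 25.9 to 32.3 CPM in control and 29.1 to 32.8 CPM in siRNA 1 libraries. In a longer fibroblast list 2 of 13 genes, Col5a2 and Fbn1, rose and 0 fell (15.4% called, against 4.67% of all genes). Without control replicate 2 only Col5a2 was called. Summed neural markers (4 of 6 above the filter) were 151 to 153 CPM in control and 164 to 186 CPM with siRNA 1, without overlap, where Nes, an intermediate filament of neural progenitors, was the 1 called (log2 fold change 0.26), not so with DESeq2 or without control replicate 2, siRNA 1 replicate 1 or siRNA 1 replicate 2. Summed primitive endoderm markers were 150 to 217 and 118 to 175 CPM, and 1 of 8 was called lower, Cubn, whose groups overlapped. The part of these markers in the results was not tested. The trophoblast marker Tpbpa was at 0 in all 7 libraries. In bulk RNA, fewer cells of a type and less RNA per cell cannot be told apart.

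Cmtr1 RNA itself did not pass the test between these groups. Control libraries had 21.3, 21.7 and 17.9 CPM and siRNA 1 libraries 21.1, 21.3, 16.2 and 18.04 CPM, from 123 to 176 reads. The groups overlapped, with a log2 fold change of -0.09 (95% interval -0.29 to 0.12, adjusted p = 0.743). A two-sided exact permutation test over the 35 ways to divide the libraries gave p = 0.457. Of the bases of the Cmtr1 transcript, 44.7% lie outside other genes on the same strand and 91.8% of those are in the last exon, so, with ambiguous reads left out of the counts, the value rests mostly on that exon and not on those that hold the siRNA targets. The counted Cmtr1 RNA thus gave no support to the label. Whether reads of the last exon follow a loss of the targeted transcript was not tested. Every direction below is that of the libraries labelled CMTR1 siRNA 1. The overlapping Gm28043, at 24 to 50 reads, had a log2 fold change of -0.09 (adjusted p = 0.874). Other enzymes of cap formation were not called either: Rngtt, the capping enzyme, had a log2 fold change of 0.03 (adjusted p = 0.842) and Rnmt, which methylates the cap guanosine, 0.04 (adjusted p = 0.835). Cmtr2, which methylates the second nucleotide, had -0.12 (adjusted p = 0.707) and Pcif1, which methylates a cap-adjacent adenosine, -0.10 (adjusted p = 0.532).

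Across the genome the changes were many and small. At an adjusted p of at most 0.05, 751 genes (4.67%) were called, 316 (1.97%) lower and 435 (2.71%) higher, with a median absolute change of 1.26-fold. A change of at least 1.5-fold was reached by 112 called genes (0.697%), 43 lower and 69 higher, and 2-fold by 23. With TMM scaling the directions were nearer to balance, 400 lower and 346 higher, and DESeq2 called 322 lower and 199 higher. The count was 355 without control replicate 2, 447 without control replicate 3 and 424 without siRNA 1 replicate 2. The libraries of the groups did not overlap for 694 of the called genes, against 15.5% of all genes tested. Most called genes named below were chosen from these, so separate groups were a condition of naming. Where they are described, they add no support to the call. The ribosomal protein, histone and pluripotency lists held 28 of the calls, so 723 lay outside them, 290 lower and 433 higher. Of these, 217 were in 1 of the other lists (pathways, gene families and complexes) and 506 in none. Long genes were called more often: of 5 classes of exon length, the shortest had 1.83% called and the longest 8.53%, where 77 were lower and 197 higher. The part of read number, which grows with length, in that share was not tested.

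Genes of the ATF4 program fell together in the libraries labelled CMTR1 siRNA 1. Of 54 tested genes on the list of ATF4 and integrated stress response targets, 20 fell and 0 rose (37%, against 1.97% of all genes lower), and 53 lay below 0 (98.1%, against 43.2% of all genes). Their median log2 fold change was -0.19, with 0.02 over all genes, and was -0.21 with TMM scaling. As a mean of log2(CPM + 1) over the list, the control libraries were at 5.75, 5.89 and 5.92 and the siRNA 1 libraries at 5.58, 5.58, 5.66 and 5.66, without overlap. Without control replicate 2 the number that fell was 11.

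The transcript of Atf4 itself, the transcription factor of the pathway (chr15:80255184-80257541), was lower. It was at 172, 177 and 178 CPM in control and 138, 138, 152 and 154 CPM with siRNA 1, a log2 fold change of -0.27 (SE 0.0504, adjusted p = 0.000431). All 4 siRNA 1 libraries lay below all 3 control libraries. Trib3, a pseudokinase that ATF4 induces and that feeds back on it, was at 18.03, 25.2 and 23.3 CPM in control and 13.8, 12.2, 16.9 and 15.4 CPM with siRNA 1, a log2 fold change of -0.61 (adjusted p = 0.000408). Chac1, a glutathione-degrading enzyme and a classical stress target, was at 9.14, 11.5 and 14.3 CPM and at 4.75, 6.73, 7.40 and 8.29 CPM, a log2 fold change of -0.76 (SE 0.155, adjusted p = 0.0014). Both pairs of groups were separate, although the lowest control library was near the highest siRNA 1 library. Ddit3, which encodes the stress factor CHOP, had a log2 fold change of -0.17 and was not called (adjusted p = 0.716). Nupr1, a stress-induced chromatin protein, had the lowest log2 fold change of the list, -1.27 (adjusted p = 0.000199), at levels of only 4.82, 5.06 and 7.54 CPM in control and 2.82, 2.24, 2.51 and 2.00 CPM with siRNA 1. It lay under the expression limit for naming and was chosen after its values were seen.

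Genes that fell included enzymes of amino acid and one-carbon metabolism. Pck2, the mitochondrial phosphoenolpyruvate carboxykinase (chr14:55540266-55551242), was at 16.3, 20.6 and 25.2 CPM in control and 11.1, 10.3, 11.2 and 13.8 CPM with siRNA 1. The means were 20.7 ± 4.46 CPM (SD, n = 3) and 11.6 ± 1.49 CPM (n = 4), a log2 fold change of -0.83 (SE 0.127, 95% interval -1.08 to -0.58, adjusted p = 2.97e-05). Its control libraries differed from each other more than its siRNA 1 libraries did, and the groups were separate. Mthfd2, which makes one-carbon units in mitochondria, was at 73.8, 84.6 and 84.0 CPM and at 49.1, 58.8, 65.8 and 66.7 CPM, a log2 fold change of -0.42 (SE 0.0727, adjusted p = 0.000146). Psat1, an enzyme of serine synthesis, fell by 0.24 on the log2 scale (adjusted p = 0.0034), and Asns, asparagine synthetase, by 0.20 (adjusted p = 0.0194). Both groups of each of these genes were separate.

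Amino acid transporters and tRNA synthetases on the list fell too. Slc1a4, a carrier of alanine, serine and cysteine, was at 36.3, 40.0 and 43.5 CPM in control and 31.8, 28.4, 31.4 and 29.8 CPM with siRNA 1, a log2 fold change of -0.40 (adjusted p = 0.000838). Slc38a2, the amino acid transporter SNAT2, was at 749, 741 and 751 CPM in control and 686, 653, 648 and 666 CPM, a log2 fold change of -0.17 (adjusted p = 0.00604). Slc7a3, a carrier of arginine and lysine, fell by 0.26 on the log2 scale (adjusted p = 0.00364), and Xpot, the exporter of tRNA from the nucleus, by 0.26 (adjusted p = 0.000277). The synthetase genes Nars, Gars and Aars, which charge asparagine, glycine and alanine tRNA, fell by 0.23, 0.20 and 0.16. In the whole family of aminoacyl-tRNA synthetases 3 of 37 fell and 1 rose (10.8% called, against 4.67% of all genes). The 1 that rose was the mitochondrial Ears2 (log2 fold change 0.42). The calls of Aars, Gars, Nars and Psat1 were lost without control replicate 2, as were those of Aars and Gars without control replicate 3 and siRNA 1 replicate 1, and that of Aars without siRNA 1 replicate 2.

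**Figure D1:**
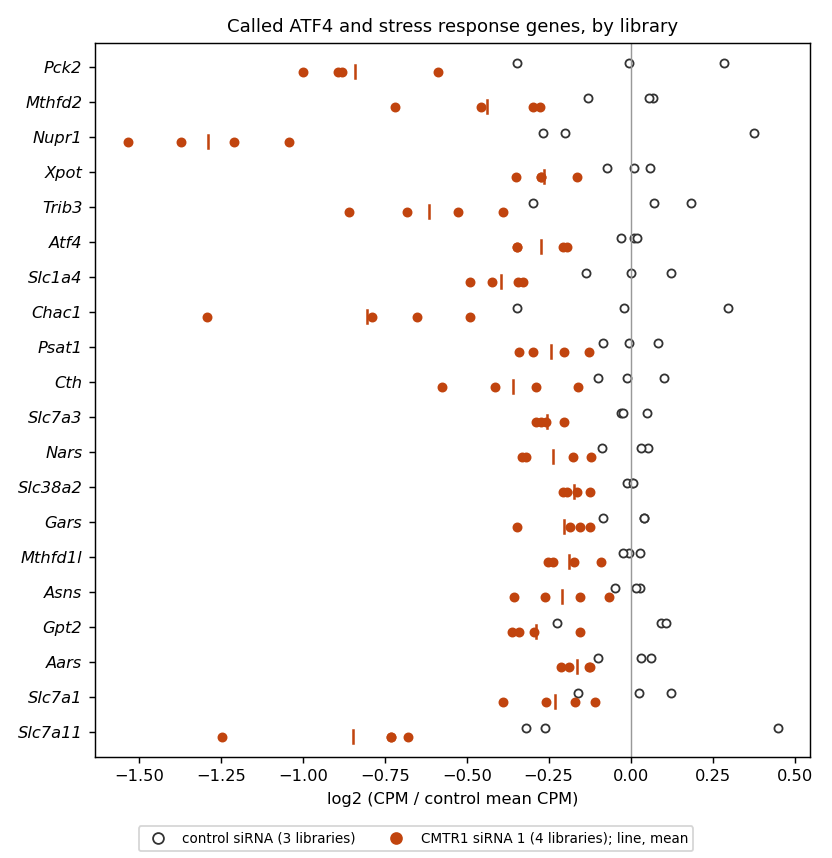
Called genes of the ATF4 and integrated stress response list, 1 row per gene; the horizontal axis is log2 of CPM over the mean CPM of the control libraries, open points are the 3 control libraries, filled points the 4 libraries labelled CMTR1 siRNA 1 and lines their mean. The siRNA 1 points lie left of all control points in every row except those of Gpt2 and Slc7a1, where the groups overlap.

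ATF4 binds the C/EBP-ATF response element, TGATGNAA, and the promoters in RefSeq (GRCm38.p6, 250 bases before to 50 after the start) were searched for it on both strands, TTNCATCA being the other strand. It was found in 16 of 43 list members with a promoter (37.2%), against 289 of 10847 tested genes (2.66%). Among members that fell it was in 9 of 17 (52.9%), and among members not called in 7 of 26 (26.9%). Genes off the list that fell held it in 8 of 223 (3.59%), and all genes that rose in 7 of 328 (2.13%). The list was assembled as known targets, so a high share in it is no independent result, and the match is one of letters and not of binding. The element is shown in capitals for 4 members that fell, on the strand of the gene.
Pck2, chr14:55540152-55540181, plus strand: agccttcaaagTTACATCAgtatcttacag
Chac1, chr2:119351038-119351067, plus strand: cttccctgccgTTGCATCActcctgccagg
Slc1a4, chr11:20332699-20332728, minus strand: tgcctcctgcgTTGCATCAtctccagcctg
Gars, chr6:55037960-55037989, plus strand: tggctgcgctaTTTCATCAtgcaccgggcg
In all 4 the letters TGATGNAA lie on the strand opposite to the gene. Log2 fold changes ran from -0.83 for Pck2 to -0.20 for Gars, so members with the element differed among themselves in the size of the fall.

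Translation genes that share a 5′ terminal oligopyrimidine tract with the ribosomal protein genes, but encode no ribosomal protein, fell in part. Of 24 such genes 6 fell (25%, against 1.97% of all genes lower) and 0 rose, 21 lay below 0 (87.5%, against 43.2% of all genes), and the median log2 fold change was -0.10. Eif4a2, an RNA helicase of translation initiation, was at 459, 450 and 403 CPM in control and 342, 332, 364 and 353 CPM with siRNA 1. Its log2 fold change was -0.33 (SE 0.0532, adjusted p = 5.09e-05). Eif4b, the cofactor of that helicase, was at 682, 715 and 692 CPM and at 578, 585, 625 and 597 CPM, a log2 fold change of -0.22 (adjusted p = 0.000444). In both genes the groups were well separated. Eef1b2, an exchange factor of elongation, fell by 0.24 on the log2 scale (adjusted p = 0.000266), and Eef2, the translocase of elongation, by 0.15 (adjusted p = 0.0191), from 2327, 2525 and 2556 CPM to 2191, 2178, 2265 and 2239 CPM. The histone chaperone Nap1l1 and the growth-related Tpt1 were the others. Without control replicate 2, and also without siRNA 1 replicate 2, 3 of the 24 were lower. Eef2, Nap1l1 and Tpt1 each lost the call without those 2 libraries.

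Long noncoding RNAs that host small nucleolar RNAs in their introns showed a similar count. Of 17 snoRNA host genes 6 fell (35.3%, against 1.97% of all genes lower), 0 rose and 12 lay below 0 (70.6%, against 43.2%), with a median log2 fold change of -0.12, which was -0.04 without siRNA 1 replicate 2. Snhg3 was at 57.3, 54.8 and 42.5 CPM in control and 38.9, 37.5, 39.0 and 38.1 CPM with siRNA 1, a log2 fold change of -0.43 (SE 0.0774, adjusted p = 0.000281). Snhg12 was at 80.4, 71.7 and 67.6 CPM and at 61.6, 59.2, 55.1 and 57.1 CPM, a log2 fold change of -0.33 (adjusted p = 0.000838). The siRNA 1 libraries were close to each other in both genes, while the control libraries were spread, with control replicate 3 the lowest. Over the list as a mean of log2(CPM + 1), control replicate 3 (5.47) lay within the range of the siRNA 1 libraries (5.46 to 5.49), and the others were at 5.68 and 5.59. Without control replicate 1 or control replicate 2, 3 hosts fell, and without control replicate 1 the median was -0.09 and 1 host rose. Gas5, the best known of these hosts, had a log2 fold change of -0.13 (adjusted p = 0.21).

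**Figure D2:**
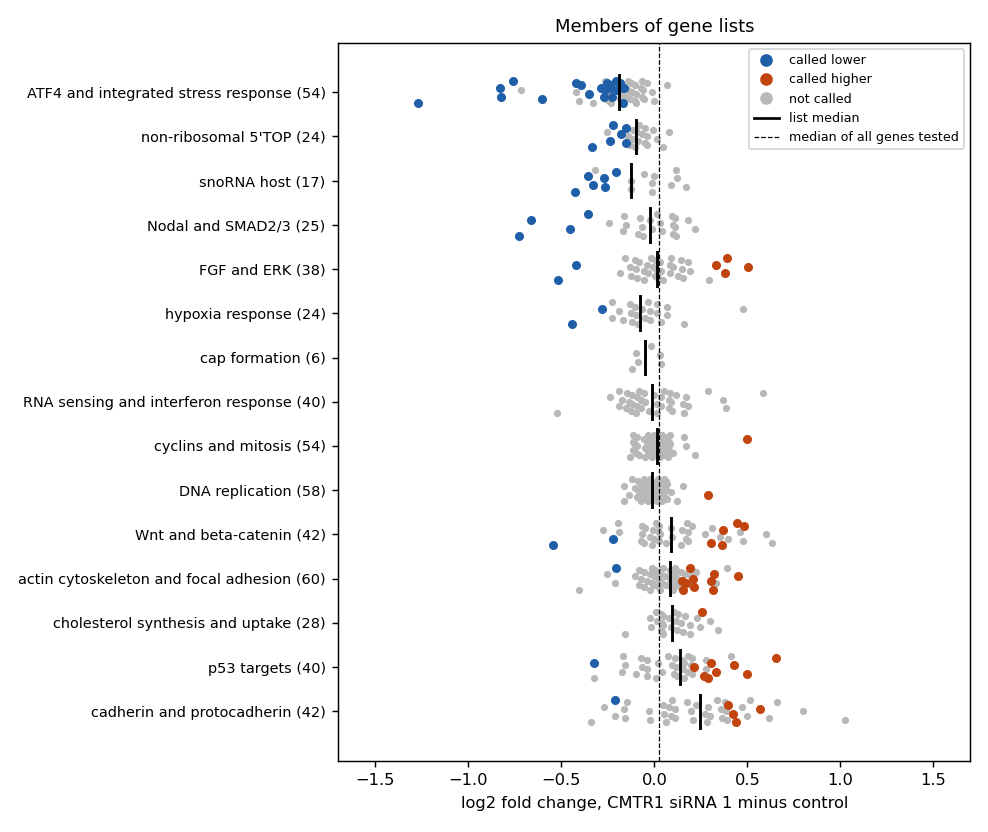
Log2 fold change of each tested member (points) of 15 gene lists, siRNA 1 minus control, with the number of members tested after each name; blue points fell, red points rose, grey points were not called, solid lines are list medians and the dashed line is the median of all genes tested. The ATF4 list lies almost wholly below 0, while the p53, actin, cholesterol, Wnt and cadherin lists have medians above that of all genes.

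Targets of p53 rose more often than they fell. Of 40 tested, 8 rose and 1 fell (22.5% called, against 4.67% of all genes), and the median log2 fold change was 0.14. Cdkn1a, the cell cycle inhibitor p21 (chr17:29090976-29100727), was at 42.5, 40.6 and 38.9 CPM in control and 59.1, 61.4, 52.7 and 56.7 CPM with siRNA 1. The means were 40.7 ± 1.82 CPM (n = 3) and 57.5 ± 3.73 CPM (n = 4), a log2 fold change of 0.50 (95% interval 0.35 to 0.64, adjusted p = 1.59e-05). The lowest siRNA 1 library was well above the highest control library. Apaf1, the scaffold of the apoptosome, was at 62.8, 62.5 and 68.1 CPM and at 83.4, 79.5, 77.5 and 78.1 CPM, a log2 fold change of 0.30 (adjusted p = 0.00207). Plk2, a stress-induced kinase, was at 69.3, 63.8 and 55.9 CPM and at 88.4, 76.8, 77.3 and 75.5 CPM, a log2 fold change of 0.33 (adjusted p = 0.00135). Dcxr, a reductase of sugars and dicarbonyls, rose from 8.76, 9.13 and 8.48 CPM to 17.2, 13.7, 12.5 and 12.3 CPM, a log2 fold change of 0.66 (adjusted p = 0.00125). In each of these genes the groups were separate.

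The p53 list was not uniform. Ccng1, cyclin G1, went the other way, from 237, 220 and 228 CPM in control to 182, 178, 190 and 180 CPM with siRNA 1, a log2 fold change of -0.32 (SE 0.0489, adjusted p = 2.39e-05). It holds a match to the siRNA 1 seed in its 3′ UTR, given with the seed matches. Of the 37 members with an annotated 3′ UTR 7 hold a match, among them 2 of the 6 that rose. The part of the match was not tested. Mdm2, the ubiquitin ligase that limits p53, had a log2 fold change of 0.12 (adjusted p = 0.221), and Trp53, the gene of p53 itself, 0.01 (adjusted p = 0.962). DESeq2 called 5 members higher. Without siRNA 1 replicate 2 the number was 4, and without control replicate 2, control replicate 3 or siRNA 1 replicate 1 it was 5. The call of Cdkn1a held in each of these. Cdkn1a was also the only gene called among 54 cyclins and mitosis genes (1.85%, against 4.67% of all genes). Of 58 DNA replication genes 1 was called, Rfc1, higher (1.72%).

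Some genes of the actin cytoskeleton and focal adhesions rose. Of 60 tested, 10 rose and 1 fell (18.3% called, against 4.67% of all genes), and 17 lay below 0, with a median log2 fold change of 0.09. Tns3, tensin 3, which links integrins to actin, was at 309, 270 and 293 CPM in control and 363, 361, 361 and 362 CPM with siRNA 1, a log2 fold change of 0.32 (SE 0.0452, adjusted p = 8.77e-06). Cald1, the actin-binding caldesmon, was at 55.7, 43.8 and 50.1 CPM and at 70.5, 65.2, 67.2 and 69.5 CPM, a log2 fold change of 0.45 (adjusted p = 3.37e-05). The siRNA 1 libraries were nearly equal for both genes and lay above all control libraries. Tpm1, a tropomyosin, rose by 0.21 (adjusted p = 0.00632) and Zyx, the focal adhesion protein zyxin, by 0.32 (adjusted p = 0.00996). Lima1, an actin cross-linker with a match to the siRNA 1 seed, was the member that fell, with a log2 fold change of -0.21. The match was in 7 of the 60 genes, against 13.9% of all tested genes with a 3′ UTR and 27.9% of those that fell. Its part was not tested. DESeq2 called 3 higher. The number was 5 without control replicate 1 and 4 without control replicate 2 or siRNA 1 replicate 2, and Zyx lost its call with DESeq2, without control replicate 2 and without siRNA 1 replicate 2.

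Small GTPases that organise actin were among the genes that rose. Rac1, which drives membrane ruffling, was at 110, 107 and 109 CPM in control and 125, 140, 150 and 132 CPM with siRNA 1, a log2 fold change of 0.33 (adjusted p = 0.000132), with all siRNA 1 libraries higher. Rhoc had a log2 fold change of 0.47 (adjusted p = 0.00384). Tubb6, a beta-tubulin, was at 86.2, 85.5 and 82.0 CPM and at 126, 124, 111 and 113 CPM, a log2 fold change of 0.48 (adjusted p = 3.6e-07). Of 24 tubulin genes in all 2 rose and 1 fell (12.5% called, against 4.67% of all genes).

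**Figure D3:**
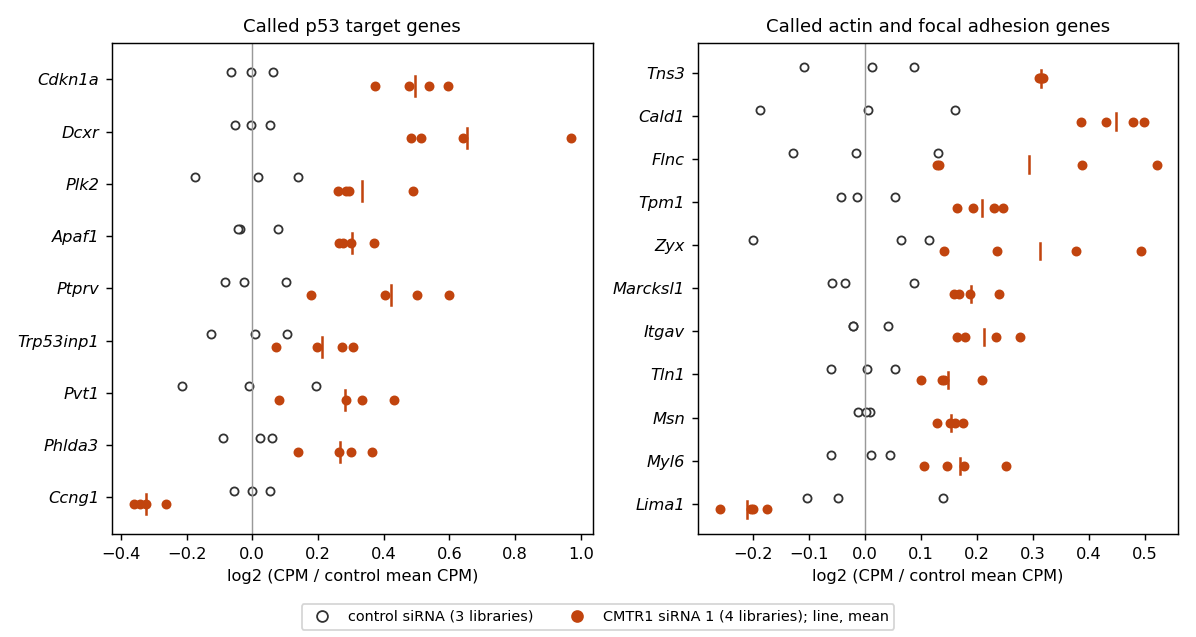
Called genes of the p53 target list (left) and of the actin and focal adhesion list (right), 1 row per gene; the horizontal axes are log2 of CPM over the control mean, open points are the 3 control libraries, filled points the 4 libraries labelled CMTR1 siRNA 1 and lines their mean. Ccng1 and Lima1 are the rows in which the siRNA 1 points lie to the left of control.

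Among the higher genes with the lowest adjusted p were 3 that encode secreted or matrix proteins. Vcan, the proteoglycan versican (chr13:89655312-89742509), was at 96.6, 87.8 and 99.6 CPM in control and 155, 151, 123 and 129 CPM with siRNA 1, a log2 fold change of 0.56 (SE 0.0664, adjusted p = 3.17e-07). Fbn2, a fibrillin of microfibrils, was at 28.3, 22.6 and 25.3 CPM and at 48.5, 43.1, 37.5 and 36.8 CPM, a log2 fold change of 0.70 (adjusted p = 1e-06). Serpine2, a secreted protease inhibitor, was at 32.5, 28.0 and 27.5 CPM and at 50.8, 50.6, 42.0 and 40.9 CPM, a log2 fold change of 0.65 (adjusted p = 1e-06). For all 3 genes siRNA 1 replicates 1 and 2 lay above replicates 3 and 4, with both pairs above control. The same pairs appear in some list means of log2(CPM + 1). For p53 targets these were 5.47 and 5.45 against 5.36 and 5.39, and for cadherins 3.09 and 3.08 against 2.84 and 2.94. The lower cadherin pair overlapped control (2.77 to 2.86). The actin list did not show these pairs. The cause of the split was not tested. The collagen gene Col5a2 rose by 0.67 (adjusted p = 0.000816) and Lama3, a laminin chain of epithelial basement membrane, was lower, with a log2 fold change of -0.49 (adjusted p = 0.000266). Of 61 collagen, laminin and integrin genes 3 rose and 1 fell, a share called of 6.56%, near the 4.67% of all genes.

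Cadherins moved both ways. Cdh2, N-cadherin, was at 37.1, 38.5 and 34.3 CPM in control and 50.2, 49.98, 44.9 and 47.7 CPM with siRNA 1, a log2 fold change of 0.39 (adjusted p = 0.000462). Cdh1, E-cadherin, was lower, at 495, 491 and 551 CPM and at 447, 433, 447 and 445 CPM, a log2 fold change of -0.21 (adjusted p = 0.00224). The groups of both genes were separate, and the call of Cdh1 was lost without control replicate 3. Cdh1 holds a match to the siRNA 1 seed, which 6 of the 42 cadherin and protocadherin genes hold. Over all tested genes with a 3′ UTR the share was 13.9%, and 27.9% of those that fell. The part of the match was not tested. Of 42 cadherin and protocadherin genes 4 rose (Cdh2, Pcdh1, Pcdhgc3 and Pcdh18) and 1 fell (11.9% called, against 4.67% of all genes), with a median log2 fold change of 0.25. The number that rose was 2 with DESeq2 and 2 without siRNA 1 replicate 2, where the median was 0.15. Pcdh1 lost its call with DESeq2 and Pcdhgc3 without siRNA 1 replicate 2. Protocadherin exons shared between clustered genes make the gene of origin of some reads uncertain.

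Of 24 YAP and TEAD genes, which respond to cell tension, 4 rose and 1 fell (20.8% called, against 4.67% of all genes). Without control replicate 2, 2 rose and 0 fell. Ptpn14, a phosphatase that restrains YAP, was at 143, 149 and 155 CPM in control and 203, 199, 178 and 188 CPM with siRNA 1, a log2 fold change of 0.36 (adjusted p = 6.56e-06). Tead1, a DNA-binding partner of YAP, was at 321, 300 and 324 CPM and at 394, 377, 384 and 389 CPM, a log2 fold change of 0.29 (adjusted p = 2.29e-05). Yap1 itself was lower, at 207, 214 and 205 CPM and at 174, 178, 179 and 190 CPM, a log2 fold change of -0.21 (adjusted p = 0.00377). It holds a match to the siRNA 1 seed, which 5 of the 24 genes hold. Over all tested genes with a 3′ UTR the share was 13.9%, and 27.9% of those that fell. The part of the match was not tested. All 3 genes had separate groups, in opposite directions, and Yap1 lost its call without control replicate 2.

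Several signalling pathways had single members that moved clearly. In the Wnt pathway 5 of 42 genes rose and 2 fell (16.7% called, against 4.67% of all genes). Lef1, a DNA-binding effector of beta-catenin, was at 120, 99.2 and 103 CPM in control and 146, 160, 132 and 145 CPM with siRNA 1, a log2 fold change of 0.44 (adjusted p = 4.42e-06). Gsk3b, the kinase that marks beta-catenin for destruction, was at 103, 97.9 and 93.1 CPM and at 126, 125, 133 and 124 CPM, a log2 fold change of 0.37 (adjusted p = 1.48e-05). Notum, a secreted enzyme that inactivates Wnt ligands and is a target of the pathway, was lower, from 24.9, 27.3 and 29.9 CPM to 19.9, 18.4, 17.3 and 19.25 CPM, a log2 fold change of -0.55 (adjusted p = 0.000413). The groups of these 3 genes were separate. DESeq2 called 3 Wnt genes higher, and the number was 3 without control replicate 2 or siRNA 1 replicate 2 and 2 without control replicate 3.

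In the FGF and ERK list 4 of 38 genes rose and 2 fell (15.8% called, against 4.67% of all genes). The number that fell was 1 without any 1 of control replicates 1 and 2 and siRNA 1 replicates 1, 3 and 4. Among the receptor and kinases, Fgfr2 was at 39.2, 40.0 and 41.2 CPM in control and 55.8, 54.6, 49.4 and 51.1 CPM with siRNA 1, a log2 fold change of 0.39 (adjusted p = 0.000274). Mapk3, the kinase ERK1, was at 64.2, 56.5 and 59.0 CPM and at 76.6, 77.9, 78.6 and 78.7 CPM, a log2 fold change of 0.38 (adjusted p = 0.000146). Spred3 and Il17rd, inhibitors of the pathway, rose by 0.50 (adjusted p = 3.16e-05) and 0.33 (adjusted p = 9.56e-05). The groups of all 4 were separate, and the ligand Fgf15 was lower (log2 fold change -0.42, adjusted p = 0.0394), a call lost with each of those libraries left out, with DESeq2 and with the replicate number as a block.

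TGF-beta family genes that moved were lower. Inhbb, the inhibin beta-B subunit of activin, was at 20.4, 21.6 and 24.0 CPM in control and 15.3, 11.1, 13.6 and 15.6 CPM with siRNA 1, a log2 fold change of -0.67 (adjusted p = 7.09e-05). Bmp4, a ligand that holds ESCs in self-renewal together with LIF, was at 12.2, 12.2 and 13.9 CPM and at 8.01, 7.73, 8.85 and 7.08 CPM, a log2 fold change of -0.68 (SE 0.141, adjusted p = 0.00161). Both had separate groups. In the Nodal and SMAD2/3 list 4 of 25 fell (16%, against 1.97% of all genes lower) and 0 rose, of which Lefty1 and Lefty2 are also pluripotency genes. Nodal had a log2 fold change of 0.10 (adjusted p = 0.48), and Bmp4 was the only call in the BMP list of 22 (4.55%, near the 4.67% of all genes).

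Among chromatin and noncoding genes a few abundant members changed. Epop, an ESC-specific subunit of the Polycomb repressive complex PRC2, was at 143, 162 and 161 CPM in control and 112, 105, 116 and 118 CPM with siRNA 1, a log2 fold change of -0.46 (adjusted p = 3.17e-07). Rbbp7, a histone-binding subunit of PRC2 and of other complexes, was at 204, 189 and 186 CPM and at 239, 250, 271 and 270 CPM, a log2 fold change of 0.42 (adjusted p = 5.46e-07). They moved in opposite directions with separate groups. The Polycomb list as a whole had 2 genes lower and 2 higher of 40 (10% called, against 4.67% of all genes). Neat1, the RNA scaffold of paraspeckles, was at 229, 232 and 241 CPM and at 173, 179, 162 and 185 CPM, a log2 fold change of -0.42 (adjusted p = 3.17e-07). Lncenc1, a noncoding RNA of naive ESCs, was lower by a log2 fold change of -0.25. Of 51 imprinted genes 5 fell and 5 rose (19.6% called, against 4.67% of all genes). DESeq2 called 2 higher and TMM scaling 3. Without control replicate 2, and also without siRNA 1 replicate 2, 2 fell and 2 rose, and without control replicate 3 or siRNA 1 replicate 1, 3 fell and 2 rose. Peg12 led the genes that rose, at 4.70, 5.43 and 5.38 CPM in control and 11.7, 9.72, 8.19 and 9.49 CPM with siRNA 1 (log2 fold change 0.91, adjusted p = 0.000281).

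The metabolic lists named here held at most 2 calls each. Cholesterol genes had 25 of 28 members above 0 with a median log2 fold change of 0.10. Their share below 0 was 10.7%, against 43.2% of all genes, and 1 was called, higher. As a mean over that list the libraries of the groups did not overlap. Of 27 glycolysis genes 2 fell (7.41%, against 1.97% of all genes lower), led by Pfkp, a phosphofructokinase (log2 fold change -0.34). Pfkp is the 1 of the 27 with a match to the siRNA 1 seed, whose part was not tested. Of 24 hypoxia genes 2 fell (8.33%), Epas1 (-0.28) and Vegfa (-0.45), the latter not without control replicate 3. Several lists held 0 calls: the 6 cap formation enzymes, 40 genes of RNA sensing and interferon response, 92 of RNA polymerase II and Mediator, 33 SR and hnRNP proteins, 28 SWI/SNF subunits, 23 m6A factors, 20 vacuolar ATPase subunits, 14 chaperonin and prefoldin subunits, 13 of the MYC network, 13 trophoblast markers and 15 of the 2-cell-like state. A list with 0 calls can still hold changes below what 7 libraries resolve.

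The genes with the largest changes outside any theme included Klhl13, an X-linked adaptor of a ubiquitin ligase, at 73.5, 77.2 and 78.9 CPM in control and 35.2, 41.0, 58.6 and 48.9 CPM with siRNA 1 (log2 fold change -0.73, adjusted p = 1e-06). The siRNA 1 libraries were spread but all below control. Mras, a Ras-related GTPase, was at 11.8, 15.05 and 17.6 CPM and at 7.72, 7.35, 8.32 and 9.89 CPM (log2 fold change -0.83), and Cbr3, a carbonyl reductase, had a log2 fold change of -0.82. Higher were Vopp1 (0.99), Gas1, a membrane protein that modulates Hedgehog signalling (0.97), Piezo2, a mechanically gated channel (0.97), En1, a homeobox factor (0.85), and Zfp521 (0.83). Gas1 was at 5.08, 4.32 and 2.42 CPM in control and 8.16, 7.85, 7.53 and 7.75 CPM with siRNA 1. Gas1, En1 and Vopp1 had at most 63 reads in any of the 7 libraries, which limits the precision of their fold changes. Of these genes, Piezo2 lost its call without control replicate 2. Abundant or tightly measured genes that rose were Zwint, a kinetochore protein, at 106, 101 and 101 CPM and at 129, 136, 142 and 140 CPM (log2 fold change 0.41, adjusted p = 1.86e-06). Psmb7, a catalytic proteasome subunit, rose by 0.40 (adjusted p = 1.42e-06), and Tnks, the polymerase tankyrase, by 0.36 (adjusted p = 1e-06). Psmb7 was 1 of 2 proteasome genes that rose of 48 (4.17%, against 2.71% of all genes higher).

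The changes with siRNA 1 were then set against those with siRNA 2. Against the same control libraries siRNA 2 called 1562 genes (9.72%), and because the controls are shared the comparisons are not independent, so the siRNAs were also compared directly. That contrast, siRNA 2 minus siRNA 1, shares the siRNA 1 libraries with the calls above. It called 1196 genes (7.44%), with siRNA 2 above at 721 (4.49%) and below at 475 (2.96%). Of the 751 genes called with siRNA 1, 192 (25.6%) also differed between the siRNAs. They comprised 97 genes that fell with siRNA 1 and were higher with siRNA 2, 81 that rose and were lower with siRNA 2, and 14 that differed the other way, 6 lower and 8 higher. The remaining 213 lower and 346 higher genes had no call between the siRNAs, which does not show that the siRNAs acted alike on them. The count between the siRNAs was 740 with DESeq2, 738 without siRNA 1 replicate 1, 724 without siRNA 1 replicate 2 and 757 without siRNA 2 replicate 1.

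Genes of the groups described above varied in this contrast. For Cdkn1a the log2 fold change against control was 0.50 with siRNA 1 and 0.41 with siRNA 2, a difference of -0.09 (adjusted p = 0.463), and for Pck2 it was -0.83 and -0.95, a difference of -0.12 (adjusted p = 0.669). For Tnks the values were 0.36 and 0.33, and for Psmb7 0.40 and 0.36, again with no call between the siRNAs. For Atf4 they were -0.27 and -0.13, a difference of 0.14 (adjusted p = 0.0573), and for Mthfd2 -0.42 and -0.20, a difference of 0.22 (adjusted p = 0.0368). Of the 20 ATF4 genes that fell, 6 differed between the siRNAs. Over all 54 the median log2 fold change was -0.19 with siRNA 1 and -0.10 with siRNA 2. Vcan had 0.56 and 0.06, and the difference of -0.50 was called (adjusted p = 1.9e-07).

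Genes with the lowest adjusted p between the siRNAs, among those that fell with siRNA 1, were Gab1, Serp1, Ccng1, Ago1 and Tmem64. Serp1, a small protein of the endoplasmic reticulum translocon, was at 89.8, 102 and 98.8 CPM in control and 56.4, 64.7, 65.8 and 66.4 CPM with siRNA 1, a log2 fold change of -0.61 (95% interval -0.73 to -0.48, adjusted p = 5.21e-08). With siRNA 2 it was at 94.8 ± 6.12 CPM (n = 4), near control. Ago1, an Argonaute protein of microRNA silencing, was at 168, 186 and 185 CPM in control, 138, 134, 124 and 136 CPM with siRNA 1 and 176 ± 4.74 CPM (n = 4) with siRNA 2, and the siRNA 1 libraries stood alone below the others. Gab1, an adaptor of receptor tyrosine kinases, was at 283, 297 and 286 CPM, at 203, 212, 233 and 227 CPM and, with siRNA 2, at 319 ± 17.8 CPM (n = 4). Its difference between the siRNAs was 0.54 (adjusted p = 1.95e-11). For Ccng1 the difference was 0.47 (adjusted p = 8.62e-10) and for Tmem64 0.55 (adjusted p = 1.49e-07). Among genes that rose with siRNA 1, Vcan, Mcam, Kif5c, Il17rd and Notch3 were lower with siRNA 2 by 0.38 to 0.56 on the log2 scale. Kif5c and Notch3 lost their calls against control without control replicate 2, and Notch3 also without siRNA 1 replicates 1 and 2 and with DESeq2.

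**Figure D4:**
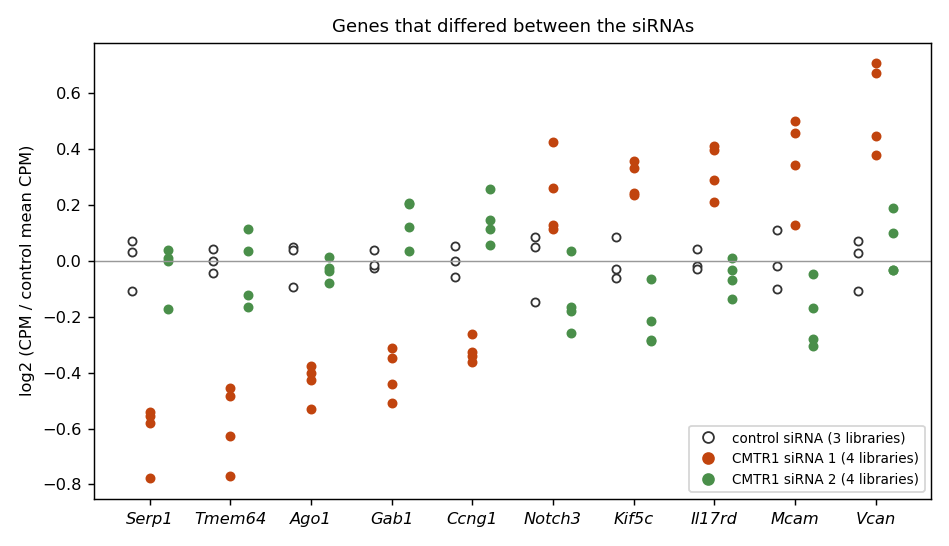
The 10 genes called with siRNA 1 that had the lowest adjusted p between the siRNAs, 5 in each direction, 1 column per gene; the vertical axis is log2 of CPM over the control mean, and points are libraries (open, control; red, siRNA 1; green, siRNA 2). The siRNA 2 points lie around the control points or beyond them, away from siRNA 1. For Serp1, Ago1 and Vcan the siRNA 2 mean lies slightly toward siRNA 1.

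Of these 5 genes that fell, 4 carry a match to the siRNA 1 seed in the 3′ UTR of their longest coding transcript. For each, 1 site is shown with its neighbouring bases on the strand of the gene and the 7 matching bases in capitals (GRCm38).
Serp1, chr3:58522846-58522867, minus strand: gaatgaaATGAATTtactgatg
Ago1, chr4:126436416-126436437, minus strand: tgtgataATGAATTctctgcat
Gab1, chr8:80765358-80765379, minus strand: attttgaATGAATTaggcagga
Ccng1, chr11:40749102-40749123, minus strand: taactggATGAATTatcactct
Serp1, Ago1 and Gab1 hold 2 matches each and Ccng1 holds 1. In Gab1 and Ccng1 an A follows, which makes an 8-mer match. Tmem64 holds none.

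Over all genes, the match was present in 84 of the 301 genes that fell and have a 3′ UTR (27.9%), in 53 of 421 that rose (12.6%) and in 1829 of 13138 tested (13.9%). Among genes that fell with siRNA 1 and were higher with siRNA 2 it was in 46 of 95 (48.4%), and among those that fell with no call between the siRNAs in 37 of 200 (18.5%). The 8-mer was in 14% of genes that fell, 26.3% of those also higher with siRNA 2, 2.38% of genes that rose and 3.59% of all. The seed of siRNA 2, for comparison, was matched in 17.3% of genes that fell with siRNA 1, 20.2% of those that rose and 15.7% of all. Long 3′ UTRs hold more matches by length alone, and the shares were therefore taken within 5 classes of length of equal size. Between 911 and 1611 bases 22.8% of genes that fell held the siRNA 1 match, against 10.8% of all, and between 1612 and 2745 bases 42.2% against 17.7%. The share of genes that fell was 1.92% with no match, 3.66% with 1 match and 8.92% with 2 or more. Of the genes that fell, 217 held no match. The median log2 fold change of genes with a match, less that of genes without, was -0.02. A match of letters does not show that a transcript was a target, and the part of the seed in these changes was not tested.

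**Figure D5:**
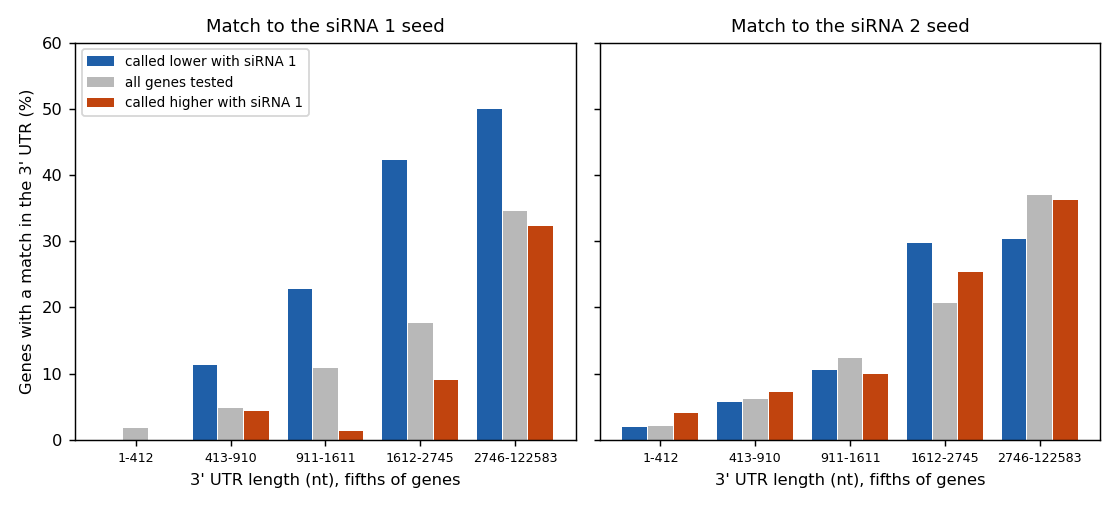
Percentage of genes (vertical axes) whose 3′ UTR holds a 7-base match to the seed of siRNA 1 (left) or siRNA 2 (right), in 5 classes of 3′ UTR length in bases (horizontal axes), for genes that fell with siRNA 1 (blue), all genes tested (grey) and genes that rose (red). For the siRNA 1 seed the blue bars are above the grey in the 4 longer classes and absent in the shortest, and for the siRNA 2 seed they are above it in 1 class.

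In the ATF4 list the siRNA 1 seed match was in 3 of the 20 genes that fell (Slc38a2, Psat1 and Xpot). It was in 7 of 54 members in all. Among all tested genes with a 3′ UTR, 27.9% of those that fell and 13.9% of the total held the match. For list members lacking the match, the log2 fold changes centred on a median of -0.20. The part of the match in the fall of this list was not tested. Of 243 solute carrier genes 13 fell and 4 rose (7% called, against 4.67% of all genes). The match was in 6 of those 13 and in 37 of the 241 with a 3′ UTR, against the same 27.9% and 13.9%. Its part was not tested.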

How the data were processed

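RNA from 11 E14 ESC samples labelled control siRNA (3), CMTR1 siRNA 1 (4) or CMTR1 siRNA 2 (4) was sequenced as rRNA-depleted directional libraries. The authors deposited counts, whole numbers of reads per Ensembl gene. The paper describes trimming with Cutadapt, alignment to GRCm38 with STAR, removal of duplicates with Picard and counting with featureCounts. Versions are not given in the sources used here, and whether the deposited counts came from these programs was not checked. Removal of duplicates by position can lower the counts of abundant short genes. Summary lines held 46.5% to 51.1% of all reads in 10 libraries and were set aside.

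Genes above 1 CPM in at least 4 of 11 libraries were fitted with edgeR 4.0.16 in R 4.3.3 (quasi-likelihood test, 3 groups, libraries scaled by total counts, Benjamini-Hochberg adjustment over all 16073 genes, calls at 0.05). Intervals are 1.96 SE either side. Groups followed the titles. Symbols and 3′ UTRs came from GENCODE M21 (54809 of 54838 identifiers matched) and promoters from RefSeq. Single values were tested by exact permutation over the 35 ways to divide the 7 libraries.

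Genes were named from those called, with separate groups, a mean log2 CPM of at least 2 and no provisional symbol: the 10 lowest and 10 highest folds, the 10 lowest adjusted p each way, up to 8 per list, the 5 most abundant each way, the 5 with the lowest adjusted p between siRNAs each way, Cmtr1 with the cap enzymes, and markers of other cells. The genes and the 77 lists were chosen with earlier results of these data known. Alternatives were TMM factors, DESeq2 1.42.0, exactTest, a fit of 7 libraries, the replicate number as a block, other filters, library sizes without Gm26917 (5.44% to 6.34% of reads in the 7 libraries), thresholds of 1.5-fold and 0.01, and each replicate left out. Scripts were tested on simulated data. Python 3.11.15 with numpy 2.4.6, pandas 2.3.3 and matplotlib 3.10.9 made tables and figures. The sequence of the control siRNA was not used here, so its seed was not searched, and the part in the genes called higher of transcripts that the control siRNA itself lowers was not tested. A few items are not reported here.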

Additional observations from a re-analysis of the deposited data

Results flagged for a closer look

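In 274 values per library, the libraries of each group of 4 siRNA 1 replicates were compared by the gap of the outermost library to its neighbour over the range of the group, where a gap above Dixon's 95% critical value for 4 samples stands apart and chance gives about 1 in 20. In 7 of the 274 values, fewer than 1 in 20, 1 siRNA 1 library stood apart. For Plk2 the gap was 0.865 of the range and came from 1 library above the others (88.4 CPM, with 75.5 to 77.3 CPM in the rest), and for Cdh1 it was 0.856, from 1 library below (433 CPM, with 445 to 447 CPM in the rest). The gap was 0.846 for Enox1, 0.93 for Zbtb37 and 0.861 for Scn3b. For the list mean of RNA sensing and interferon genes it was 0.89, and for that of snoRNA hosts 0.938, where the range itself was narrow (5.46 to 5.49 on the log2(CPM + 1) scale).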

How the results depend on the processing

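Of 199 named genes called, 101 kept the call under all alternatives that gave a value, 159 kept it in those that used all libraries, and 0 changed sign. Leaving out control replicate 2 cost the most calls, 80, against 32 with DESeq2 and 13 with TMM scaling. With each replicate left out in turn the total of 751 ran from 355 to 850, the 316 lower genes from 163 to 345, the 435 higher from 192 to 505, the 1196 genes between the siRNAs from 724 to 1374, and the 245 called list members from 123 to 264. At an adjusted p of 0.01 there were 371 calls (177 lower, 194 higher), and with a 1.5-fold threshold 112 (43 and 69). DESeq2 called 199 genes higher and 740 between the siRNAs. Left-out ranges were 11 to 21 for the 20 ATF4 genes, 3 to 8 for the oligopyrimidine genes, 3 to 6 for the snoRNA hosts, 4 to 8 for p53 targets higher, 4 to 9 for actin genes higher and 2 to 6 for Wnt genes higher. DESeq2 gave 5 p53, 3 actin and 3 Wnt genes. Leaving out a replicate leaves fewer libraries in the fit, and the cause of the other shifts was not tested. With a replicate left out, the ATF4 median ran from -0.237 to -0.177, the p53 median from 0.0991 to 0.157 and the Cmtr1 log2 fold change from -0.168 to -0.0155. With the 8-mer in place of the 7-mer the median difference of genes with a seed match was -0.0607.

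Labels give the groups the same replicate numbers, but same-numbered libraries did not deviate together (r 0.04, -0.064 and -0.036), and not every sample was most like its own number. The replicate block gave 840 calls, 356 lower and 484 higher, and 22 ATF4 genes lower; 10 of the named genes lost their call with it. At 6738478 to 8107684 reads, genes near 1 CPM rest on few reads, so small changes in them are not detectable.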
